A study of Mus musculus with 10 samples.

Results

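The genes described here are the Six-family homeobox genes Six2, Six3 and Six6 and the Iroquois homeobox genes Irx1, Irx2, Irx3, Irx4, Irx5 and Irx6. They were taken by symbol from the mouse GENCODE annotation of build NCBIM37 (mm9), which holds 37310 genes, and all 9 were found. The measurement was trimethylation of histone H3 at lysine 27 (H3K27me3) by chromatin immunoprecipitation and sequencing (ChIP-seq), given as 1 list of peak positions for each of 5 cell lines. All lines were mouse B-cell lymphoma cells of C57BL/6J strain that carry the Eμ-Myc transgene, which drives Myc from an immunoglobulin heavy chain enhancer, and lack Cdkn2a (Cdkn2a-/-). The parental line received no drug. The resistant lines all came from that 1 parental line by dose escalation with mafosfamide, a DNA alkylating agent. R100 was harvested on day 10 at 100 nM, R500 on day 18 at 500 nM, R1000 on day 23 at 1000 nM and R4000 on day 37 at 4000 nM, and the cells for ChIP-seq were grown without mafosfamide. The length of the escalation is stated in more than one way in the study's text, so the last day is uncertain. Dose and time rose together and cannot be told apart. The question was where H3K27me3 lay on these genes in each line. With 1 list per line, no difference between lines was tested, and read depth is unknown. The median peak was 100 bp wide in every list, and a peak gives the presence of the mark, not its level.

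H3K27me3 is placed by Polycomb repressive complex 2 (PRC2) and marks genes that are kept silent, with a preference for CpG-rich start sites of developmental regulators. The Six-family genes encode homeobox transcription factors of eye, kidney and muscle development that act together with Eya and Dach proteins. Irx genes encode homeobox transcription factors of the Iroquois group, which pattern the neural tube, heart and limbs and lie in clusters of 3 genes.

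The genes fell in 4 loci. Irx3, Irx5 and Irx6 lie within 882 kb of chromosome 8, Irx1, Irx2 and Irx4 within 1310 kb of chromosome 13, Six2 and Six3 within 84.6 kb of chromosome 17, and Six6 on chromosome 12. Only 4 genes, Six2, Six3, Irx4 and Irx5, had any peak between 5 kb upstream of the transcription start site (TSS) and the gene end. Six6, Irx1, Irx2, Irx3 and Irx6 had none in any of the 5 lists. Of all 37310 annotated genes 68.4% had no peak in any list, and of 22380 protein-coding genes 57.2%, beside 5 of 9 here (55.6%).

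The sequences below are reference sequence of NCBIM37, read 5′ to 3′ on the strand of the gene, with each CG dinucleotide in capitals. The first is the longest stretch of these genes that was covered in all 5 lists. It lies between 345 and 594 bp before the Irx5 TSS, at chr8:94881101-94881350 on the plus strand, outside any annotated exon, and holds 18 CG. The other 4 are the 250 bases before the TSS of 3 Irx genes without a peak and of Six2, and no list covered any of them. They lie at chr8:94325554-94325803 (Irx3, minus strand, 13 CG), chr13:72101172-72101421 (Irx1, minus strand, 23 CG), chr13:72765995-72766244 (Irx2, plus strand, 21 CG) and chr17:86087595-86087844 (Six2, minus strand, 26 CG). The motif searched was CG, which reads the same on both strands. At least 1 CG is held by 92.5% of the 250-base windows before 22375 protein-coding start sites, with a median of 8.
Irx5 upstream, in 5 lists: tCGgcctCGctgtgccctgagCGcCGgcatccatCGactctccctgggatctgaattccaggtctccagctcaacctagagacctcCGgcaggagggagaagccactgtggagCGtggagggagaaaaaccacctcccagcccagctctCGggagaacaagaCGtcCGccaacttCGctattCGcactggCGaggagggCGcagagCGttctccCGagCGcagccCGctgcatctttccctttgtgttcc
Irx3 upstream, in no list: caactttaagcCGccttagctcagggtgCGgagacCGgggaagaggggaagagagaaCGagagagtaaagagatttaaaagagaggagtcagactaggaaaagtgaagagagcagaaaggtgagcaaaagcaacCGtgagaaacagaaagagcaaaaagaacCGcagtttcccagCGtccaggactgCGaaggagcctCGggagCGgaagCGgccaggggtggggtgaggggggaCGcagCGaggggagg
Irx1 upstream, in no list: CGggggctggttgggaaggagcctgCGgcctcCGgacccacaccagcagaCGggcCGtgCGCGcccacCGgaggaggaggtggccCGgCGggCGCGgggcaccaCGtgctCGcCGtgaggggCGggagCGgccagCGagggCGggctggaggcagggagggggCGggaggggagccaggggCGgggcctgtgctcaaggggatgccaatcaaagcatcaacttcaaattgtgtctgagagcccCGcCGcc
Irx2 upstream, in no list: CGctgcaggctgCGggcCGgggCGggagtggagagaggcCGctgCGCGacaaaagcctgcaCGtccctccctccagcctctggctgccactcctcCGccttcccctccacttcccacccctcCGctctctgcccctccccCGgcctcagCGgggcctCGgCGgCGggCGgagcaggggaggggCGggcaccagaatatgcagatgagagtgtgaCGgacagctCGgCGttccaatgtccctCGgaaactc
Six2 upstream, in no list: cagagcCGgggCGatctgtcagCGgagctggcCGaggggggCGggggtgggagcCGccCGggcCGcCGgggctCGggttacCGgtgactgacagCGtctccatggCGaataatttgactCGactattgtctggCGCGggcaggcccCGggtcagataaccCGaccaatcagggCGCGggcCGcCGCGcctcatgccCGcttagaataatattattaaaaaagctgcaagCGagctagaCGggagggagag

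All 4 printed windows without a peak hold more CG than the median window. Those of Irx1, Irx2 and Six2 hold more than the covered Irx5 sequence of the same length, and that of Irx3 holds fewer. The same 250 bases had no peak in any list at the genes not printed either. Of these, Irx4 (22 CG) holds more than the covered Irx5 sequence. Six6 (16 CG), Six3 (10 CG) and Irx6 (7 CG) hold fewer, and Irx6 lies below the median. The Six3 window lies before the annotated gene start, which is 7226 bp before the RefSeq start site. The windows compare positions and not genes, since Six2 was covered elsewhere and the 250 bases before the Irx5 TSS itself, with 21 CG, had no peak in any list.

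Irx5, which encodes an Iroquois factor of heart and retina development (ENSMUSG00000031737.8, chr8:94881695-94885351, plus strand), had the most covered bases summed over the 5 lists. Peaks covered 1500 bp (parental), 3050 bp (R100), 3300 bp (R500), 2200 bp (R1000) and 1050 bp (R4000), of a window of 8657 bp. R500 was highest and R4000 lowest, at 2.03 (R100), 2.2 (R500), 1.47 (R1000) and 0.7 (R4000) times the parental line. By share of the window covered, Irx5 ranked 117 (parental), 134 (R100), 118 (R500), 62 (R1000) and 173 (R4000) among all genes. The order between lines depended on the gaps between peaks. When peaks within 1000 bp were joined, Irx5 had 4501 bp (parental), 4751 bp (R100), 4651 bp (R500), 3401 bp (R1000) and 4601 bp (R4000), the resistant lines being at 1.06, 1.03, 0.756 and 1.02 times the parental line. In every line the joined peaks ran past the gene end, where the window cut them. In the parental line, R100, R500 and R4000 the joined length was thus set by the first upstream peak, at -844, -1094, -994 and -944 bp from the TSS. It cannot show how far the mark extended. In R1000 the gap between -345 and 856 bp was too wide to be joined.

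The widest single Irx5 peak was 500 bp (parental), 2200 bp (R100), 2250 bp (R500), 700 bp (R1000) and 300 bp (R4000). In R100, 1214 of the 1452 coding bases and 1086 of the 1258 intronic bases lay in peaks. In the parental line these were 364 and 636 bases, and in R4000 they were 158 and 342. The 5 kb upstream changed less, with 500 bp (parental), 650 bp (R100), 700 bp (R500), 600 bp (R1000) and 400 bp (R4000).

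Regions were defined by joining overlapping peaks of all lists. The windows of the 9 genes held 35 such regions, of which 3 had a peak in all 5 lists (8.57%, beside 3.55% of 47264 regions genome-wide), and 26 had a peak in 1 list (74.3%, beside 77.3% genome-wide). Irx5 held 2 of the 3. The wider, chr8:94882451-94884700, runs from 756 to 3005 bp after the TSS over introns and 1114 exonic bases, and was covered over 900 bp (parental), 2200 bp (R100), 2250 bp (R500), 1550 bp (R1000) and 450 bp (R4000). The other, chr8:94880701-94881400, lies upstream and contains the Irx5 sequence printed above. Its covered length was 500 bp in parental cells and 550, 700, 600 and 400 bp in the resistant lines in the same order. Counted in 50-bp bins, 8 bins (400 bp) of the 9 genes were covered in all 5 lists, and all 8 were in Irx5.

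The mark did not stop at the Irx5 gene end. Past it, within 10 kb, a further 1500 bp (parental), 3400 bp (R100), 3900 bp (R500), 1000 bp (R1000) and 550 bp (R4000) were covered. All peaks of the 882-kb cluster lay in 1 block around Irx5, which spanned positions -1094 to 8905 bp from its TSS in the R100 list.

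**Figure D1:**
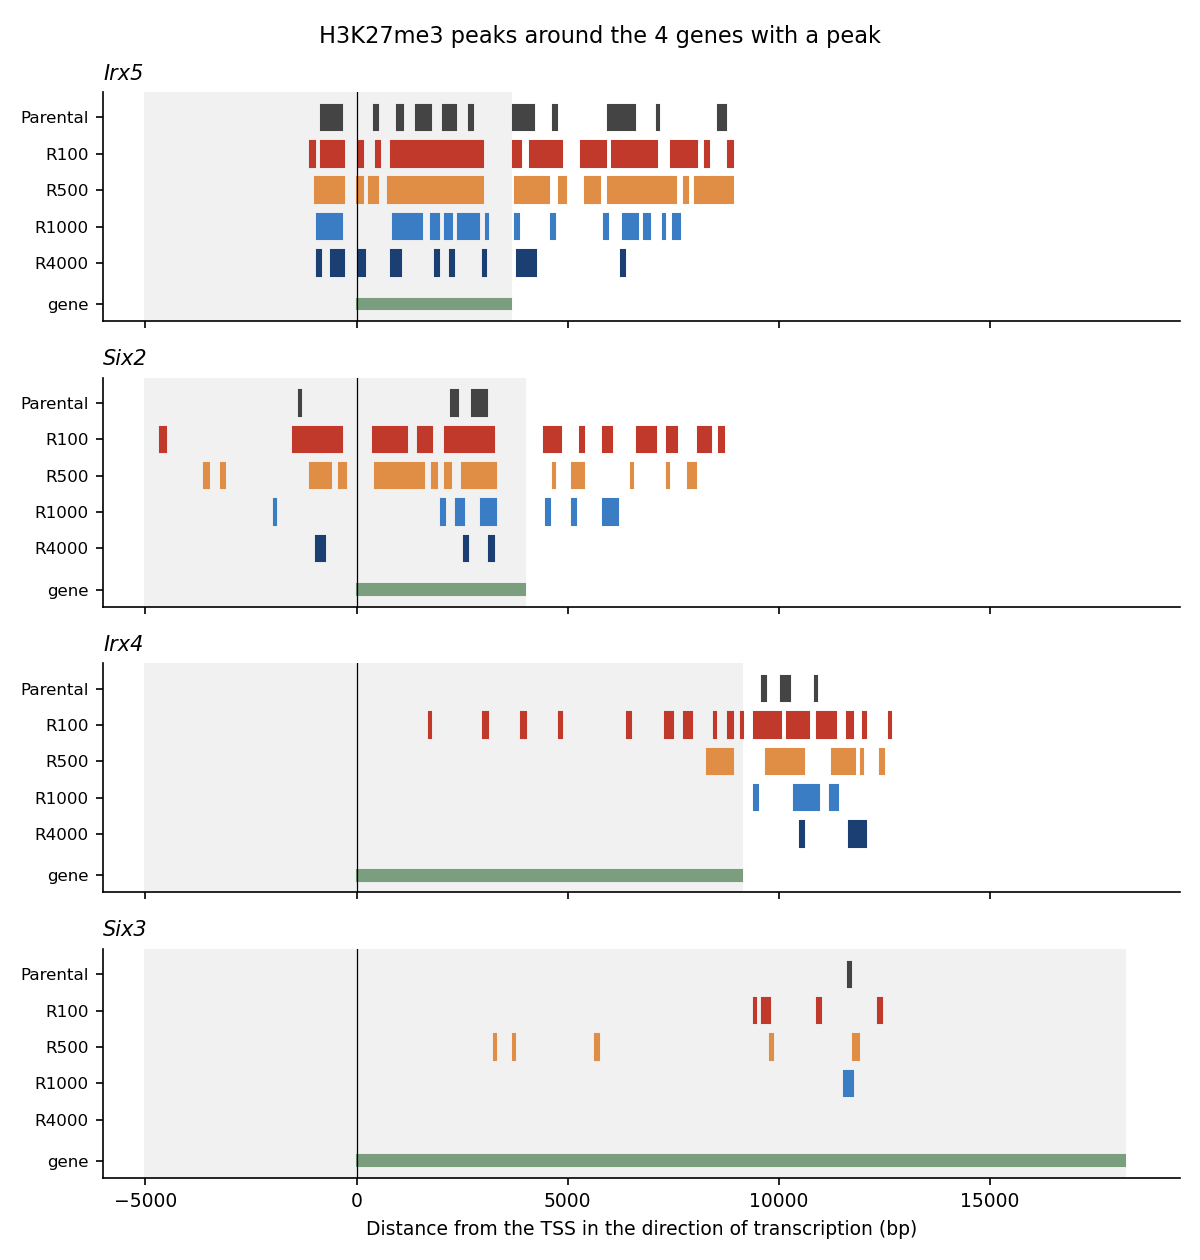
H3K27me3 peaks of the 5 lines (coloured blocks, 1 row per line) around Irx5, Six2, Irx4 and Six3, by distance from the TSS in bp in the direction of transcription. Green bars are genes, and the grey area is the counted window from 5 kb upstream to the gene end. Peaks past the gene are drawn as far as the shared axis runs, which for Six3 is only a short way. Irx5 has blocks on both sides of its TSS in every line, while the Irx4 peaks of the parental line, R1000 and R4000 all lie past the gene end.

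Six2, a factor that maintains kidney progenitor cells (ENSMUSG00000024134.9, chr17:86083608-86087594, minus strand), had the widest range between lines in bp. Peaks covered 550 bp (parental), 3600 bp (R100), 3050 bp (R500), 700 bp (R1000) and 400 bp (R4000), of a window of 8987 bp. R100 and R500 stood far above the other 3 lines, at 6.55 and 5.55 times the parental line, against 1.27 for R1000 and 0.727 for R4000. In R100 peaks covered 796 of the 888 coding bases of Six2, and in R4000 none of them. Upstream of the TSS, 50 bp (parental), 1300 bp (R100), 850 bp (R500), 50 bp (R1000) and 200 bp (R4000) were covered.

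The third region found in all 5 lists was the distal part of Six2, chr17:86084301-86085500, between 2094 and 3293 bp after the TSS with 553 exonic bases. Peaks took up 500 bp of it (parental), 1150 bp (R100), 950 bp (R500), 550 bp (R1000) and 200 bp (R4000). No 50-bp bin of it was covered in all 5 lists. The proximal Six2 region, chr17:86085801-86087200, was covered only in R100 and R500, over 1150 bp in each. Upstream, chr17:86087851-86089100 had a peak in 4 lists, with 50 bp (parental), 1150 bp (R100), 650 bp (R500) and 200 bp (R4000). Between the proximal and upstream regions the 650 bp around the TSS, which contain the Six2 sequence printed above, had no peak in any list. Past the Six2 gene end, 1800 bp (R100), 650 bp (R500) and 550 bp (R1000) were covered, and none in the parental line or R4000.

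**Figure D2:**
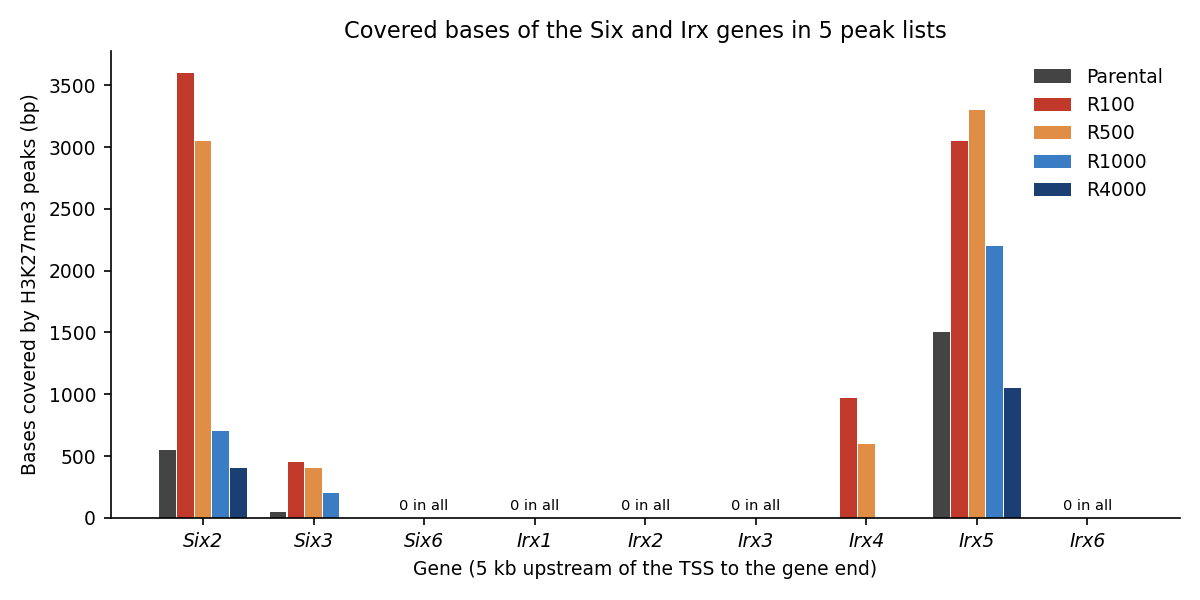
Bases covered by H3K27me3 peaks (bp, linear axis from 0) for each of the 9 genes, from 5 kb upstream of the TSS to the gene end, with 1 bar per line and no error bar because each line has 1 list. Six2 reaches 3600 bp in R100 and Irx5 3300 bp in R500, and 5 genes are at 0 in all lists.

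Six3, a factor of forebrain and eye development (ENSMUSG00000038805.7, chr17:86012948-86031153, plus strand), had small scattered peaks. They covered 50 bp (parental), 450 bp (R100), 400 bp (R500), 200 bp (R1000) and 0 bp (R4000). The widest was 200 bp, and none lay in the 5 kb upstream or in coding bases. The annotated Six3 gene starts 7226 bp before the RefSeq start site, and within 2 kb of the latter only R500 had a peak, of 100 bp. The 300-base RefSeq promoters (GRCm38.p6) of 6 of the 9 genes were in the table used, each matched NCBIM37 exactly at 1 place, and none had a covered base in any list.

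Irx4, a ventricular heart factor (ENSMUSG00000021604.7, chr13:73397945-73407068, plus strand), had peaks within its window in R100 and R500 alone, over 968 bp and 600 bp. In R500 these were 1 peak of 600 bp at the 3′ end of the gene, and in R100 10 peaks of at most 200 bp spread over the gene. The shared region, chr13:73406251-73406850, held 600 bp in R500 and 150 bp in R100. The other 3 lists were at 0 within the window, but all 5 had peaks just past the gene end, over 350 bp (parental), 1882 bp (R100), 1600 bp (R500), 900 bp (R1000) and 500 bp (R4000). With a window extended to 10 kb on both sides, Irx4 had at least 150 bp in all 5 lists.

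Within the 2 Irx clusters, peaks lay in the window of 1 gene each, Irx5 in every list and Irx4 in R100 and R500 alone. The start sites of Irx1, Irx2 and Irx4 shared 1 peak-free stretch of 2.62 Mb (chr13:70776301-73399650). The nearest peak of any list was 1298480 bp from the Irx1 TSS and 633406 bp from that of Irx2. On chromosome 8, Irx3 lay in a peak-free stretch of 1.45 Mb that ends at the Irx5 block, with the nearest peak at 555048 bp. Irx6 lay in another of 1.45 Mb on the far side of that block, with the nearest peak at 307588 bp, and Six6 was 94769 bp from a peak. Such stretches were not rare, since 11.2% of protein-coding start sites lay in stretches as long as the first and 18.8% in ones as long as that of Irx3. Unknown bases of the assembly made up 0.0472% of the stretch on chromosome 13 and none of the others.

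In vertebrates the 2 Irx clusters arose by duplication, so that Irx1 pairs with Irx3, Irx2 with Irx5 and Irx4 with Irx6. Neither member of the first pair had a peak in any list. Irx5 was covered over 1050 to 3300 bp and its counterpart Irx2 over 0 bp in every list. Irx4 was covered in R100 and R500 and its counterpart Irx6 in none. Six3 and its paralogue Six6, both eye-field factors, differed likewise in 4 lists, with at most 450 bp at Six3.

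The genes without a peak were not all poor in CpG. In the 2 kb centred on the TSS, the ratio of observed to expected CpG was 0.858 at Six2, 0.796 at Irx5, 0.779 at Irx2, 0.756 at Irx1, 0.746 at Irx3, 0.629 at Irx4, 0.558 at Six3, 0.555 at Irx6 and 0.544 at Six6. For Six3 the TSS used was the annotated gene start, 7226 bp before the RefSeq start site, and the ratio at the latter was not computed. With a GC share of at least 50% and a ratio of at least 0.6 taken as CpG-rich, 6 of the 9 genes were CpG-rich, and 3 of those 6, Irx1, Irx2 and Irx3, had no peak. Of 6650 CpG-rich protein-coding genes, 34.3% had no peak in any list, and of 15712 others 66.8%. The 2 genes with the most covered bases had the 2 highest ratios.

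**Figure D3:**
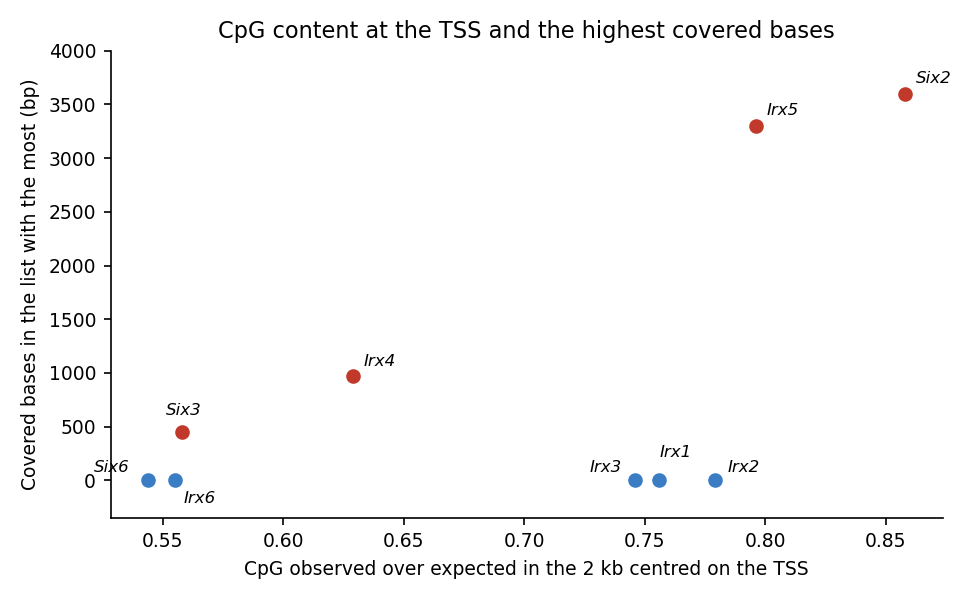
CpG observed over expected in the 2 kb centred on the TSS (horizontal axis, a ratio) against the covered bases in the list with the most (vertical axis, bp), with 1 point per gene, red where a list had a peak and blue where none had. Irx5 and Six2 lie at the upper right, at 0.796 and 0.858, and Irx1, Irx2 and Irx3 lie at 0 bp with ratios from 0.746 to 0.779. The Six3 ratio is at the annotated gene start and not at the RefSeq start site.

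Summed over the 9 genes, peaks covered 2100 bp (parental), 8068 bp (R100), 7350 bp (R500), 3100 bp (R1000) and 1450 bp (R4000), of 105615 bp. The sum was 3.84 times the parental value in R100, 3.5 times in R500, 1.48 times in R1000 and 0.69 times in R4000. The whole peak lists were also largest in R100 and R500 and smallest in R4000, but R1000 lay just below the parental line. They went from 1.63 Mb in the parental line to 5.04, 4.53, 1.61 and 1.07 Mb, or 3.09, 2.78, 0.988 and 0.658 times. As a share of each list, the 9 genes held 0.129% (parental), 0.16% (R100), 0.162% (R500), 0.192% (R1000) and 0.135% (R4000). What part of the gene values follows from the size of the lists, which depth and threshold can set, was not tested. When only the 6820 widest peaks of every list were kept, the sums were 2000, 6800, 6200, 3000 and 1450 bp. These lists were equal in number of peaks but not in covered bases. The 9 genes held 0.139%, 0.2%, 0.191%, 0.204% and 0.135% of them. With peaks within 1000 bp joined, the sums were instead 2.73 (R100), 2.05 (R500), 0.908 (R1000) and 1.01 (R4000) times the parental sum. With peaks of at least 500 bp alone they were 11.7, 12.0, 3.6 and 0.0 times. That parental sum was 500 bp, a single Irx5 peak exactly at the cutoff. R100 and R500 were above the parental line in both, while R1000 and R4000 changed sides with the joining. Six2 and Irx5 made up between 82.4% (R100) and 100.0% (R4000) of each sum.

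**Figure D4:**
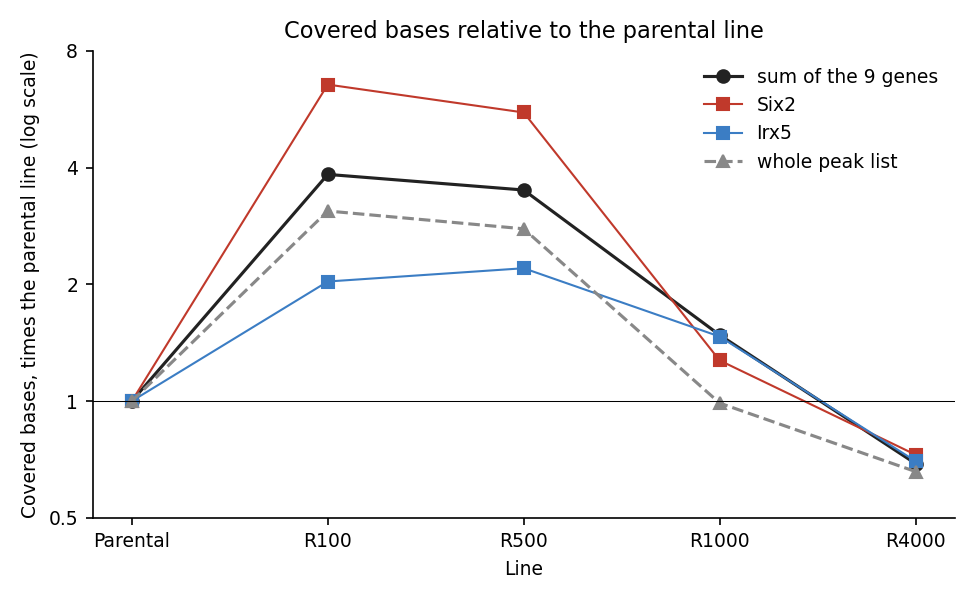
Covered bases relative to the parental line (log axis, times) in the 5 lines for the sum of the 9 genes, for Six2, for Irx5 and for the whole peak list. All 4 are above 2 in R100 and R500 and below 1 in R4000, and in R1000 the whole list is at 0.988 while the sum of the 9 genes is at 1.48.

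Counted by gene, at least 150 bp were covered at 2 of the 9 genes in the parental line, where 5.82% of all genes passed. The counts were 4 of 9 in R100 (15.8% of all genes), 4 of 9 in R500 (12.7%), 3 of 9 in R1000 (6.63%) and 2 of 9 in R4000 (5.39%). Irx5 and Six2 passed in all 5 lists. A gene was called higher or lower when its covered bases differed at least 1.5 times and by at least 150 bp. Six2, Six3, Irx4 and Irx5 were higher in R100 than in the parental line, as were 14.4% of all genes, and the same 4 were higher in R500 (11.1% of all genes). In R1000 only Six3 was higher (3.14% of all genes), and in R4000 none was higher (2.11%) or lower (3.28%). The Six3 call rested on 200 against 50 bp, exactly at the minimum difference, and over the alternatives run 0 to 3 genes were higher in R1000, 0 or 1 higher in R4000 and 0 to 3 lower in R4000. From R500 to R1000 the same 4 were lower (10.6% of all genes). With only the 6820 widest peaks of every list, Six2 and Irx4 were still lower in R1000, Irx5 (3150 bp in R500 and 2150 bp in R1000) no longer differed 1.5 times, and Six3 turned to higher in R1000 (0 bp and 200 bp). Among the 6048 genes covered in the parental line or R100, 88.5% were higher in R100, so the direction was that of the list as a whole.

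The positions could be compared as well as the lengths. Of the 42 bins of 50 bp covered at these genes in the parental line, R100 covered 40 again (95.2%, Wilson 95% interval 84.2 to 98.7), R500 37 (88.1%, 75.0 to 94.8), R1000 26 (61.9%, 46.8 to 75.0) and R4000 9 (21.4%, 11.7 to 35.9). The same shares over all parental peaks were 54.4%, 57.4%, 34.9% and 24.8%. Six2 and Irx5 held 97.6% of the parental covered bases of the 9 genes, so the shares at these genes describe mainly Six2 and Irx5. Neighbouring bins are not independent, so the intervals cover counting error only and are too narrow. In the other direction, R4000 covered 29 bins at these genes, of which 27 (93.1%) were also covered in R500 and 25 (86.2%) in R100, but 9 (31.0%) in the parental line. Over all R4000 peaks these shares were 70.9%, 70.8% and 37.7%. The share of parental bins covered again in R4000 depended on the gaps between peaks, since it was 92.7% instead of 21.4% when peaks within 1000 bp were joined.

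Of 14 genes listed as partners, relatives or neighbours of these factors, 13 were in the annotation and 7 of them had no peak in any list. Of all genes 68.4% had no peak, and of protein-coding genes 57.2%. At least 150 bp were covered at 2 of the 13 (parental), 5 (R100), 5 (R500), 3 (R1000) and 3 (R4000). Of all genes 5.82%, 15.8%, 12.7%, 6.63% and 5.39% passed in the same order. Windows of the 13 genes ran from 8802 to 543877 bp, beside a median of 10400 bp for the 9 genes. Eya1, whose product is a phosphatase that binds Six-family proteins, had 2700 bp in the parental line and 1000, 1500, 1450 and 550 bp in the resistant lines. Six5 had 0, 850, 600, 400 and 50 bp in the same order of lines, and Six4 had 0, 500, 650, 0 and 150 bp. Eya1 was thus lower than in the parental line in all 4 resistant lines.

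More genes of other homeobox groups were covered, as a share of the group. Of 12 LIM homeobox genes, 8 or 9 had at least 150 bp in each list, and of 14 Nkx genes 6 (parental), 12 (R100), 12 (R500), 7 (R1000) and 4 (R4000). These differences between groups were not tested.

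The protein-coding genes with the profile nearest to Six2, by Euclidean distance of the percent of the window covered over the 5 lines among 22357 genes, were Tnfrsf1a, a tumour necrosis factor receptor (3.72 percentage points), En2, a homeobox gene (4.71), and Tbx1, a T-box gene (6.55). Among the nearest to Irx5 were Efna3, an ephrin (7.46), and Gm6320 (7.75).

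Of 6 B-cell marker genes, none reached 150 bp in parental cells, and 3, 4, 2 and 1 did so in the resistant lines from R100 to R4000. Of 4 T-cell markers 1, 2, 3, 0 and 0 were covered in the same order, and of 3 myeloid markers 1 in each list. The B-cell markers were at 0 bp in the parental line and were covered most often in R100 and R500. The share of all genes with at least 150 bp was also highest in those lists, at 15.8% and 12.7%. It was 5.82% in the parental line, 6.63% in R1000 and 5.39% in R4000. The part of the marker genes in the result was not tested.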

How the data were processed

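H3K27me3 ChIP-seq was analysed in 5 lines. The 5 reduced representation bisulfite sequencing samples of the series' 10 were not analysed here. The authors called enrichment over input DNA with a Poisson model, and deposited peak positions (chromosome, start and end) with no counts or scores. The submitters' processing notes name Bowtie and mm9. The threshold behind the deposited lists, and whether the replicate experiments (n = 2 in the study's display) were pooled, are not given in the sources used here.

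Every peak stood 2 times in the files of R100 and R500, so repeats were dropped and distinct peaks counted (10778 in the parental line, then 25180, 21888, 9595 and 6820). Positions fell within the lengths of the 20 chromosomes compared in NCBIM37. Covered bases were counted per gene, from 5 kb upstream to the gene end, with Python 3.11.15, numpy 2.4.6, pandas 2.3.3 and statsmodels 0.14.6. The counting was tested on 1200 simulated intervals, of which 0 differed. The minimum of 150 bp equals 3 bins of 50 bp, the number that the authors required, with a p-value threshold per bin, to call a promoter enriched. Whether that threshold also made the deposited lists is not stated. The authors counted bins in the 5 kb upstream of the TSS, while the window here also held the gene. In the 5 kb upstream alone, 1 (parental), 2 (R100), 2 (R500), 1 (R1000) and 2 (R4000) of the 9 genes had at least 150 bp. The share of all genes that passed in that window was not computed, so these counts have no background. No test between lines was possible with 1 list per line. All 9 genes were named, together with the 4 partner genes with the most covered bases, the 3 nearest profiles to Six2 and Irx5, which led their families, and per locus the 2 widest regions found in all 5 lists or else the widest one. The proximal and upstream Six2 regions were added after their values were seen. Some of the genes this rule names are not reported here. The genes, lists and settings were chosen with earlier results of these data known.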

Additional observations from a re-analysis of the deposited data

Results flagged for a closer look

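R100, R500 and R1000 lay above the parental line and R4000 below it, in the sum of the 9 genes and in 3 single genes. This difference between lines was not tested, because each line has 1 list. The directions of R1000 and R4000 turned with peaks within 1000 bp joined, at 0.908 and 1.01 times the parental line for the sum and 0.756 and 1.02 times for Irx5, and in the 5 kb upstream alone the R4000 sum was at 1.09 times. The sum was 3.84 (R100), 3.5 (R500), 1.48 (R1000) and 0.69 (R4000) times the parental value. For Six2 the ratios were 6.55, 5.55, 1.27 and 0.727, and for Irx5 they were 2.03, 2.2, 1.47 and 0.7 in the same order. For Six3 they were 9.0, 8.0, 4.0 and 0.0, on a parental value of 50 bp, which is a single bin. The whole lists stood at 3.09, 2.78, 0.988 and 0.658 times the parental line.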

How the results depend on the processing

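Each line has 1 list, so no result has a replicate check, and depth, which is unknown, and the list threshold limit every value. No paired analysis was possible because each line has 1 list. Values below are given in the order parental, R100, R500, R1000 and R4000, or R100 to R4000 for ratios to the parental line, and those not given differed by less than 1.5 times, or lay within the interval of the reported share. The cause of the changes was not tested, apart from the different lengths counted. The start site of Six3 was moved to that of RefSeq after the data were seen, which changed no count or sum by more than 1.5 times. Against protein-coding genes alone, 7.67%, 21.7%, 17.0%, 8.86% and 7.05% had at least 150 bp in the main window. Shares of all genes were not computed under the alternatives, so the gene counts below have no background.

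With peaks of at least 500 bp, the sum of the 9 genes was 500 bp (parental), 1800 bp (R1000) and 0 bp (R4000), or 11.7, 12.0, 3.6 and 0.0 times the parental line. The parental value was a single Irx5 peak exactly at the cutoff, so the parental bins of this setting are those of that peak. Genes with coverage then numbered 1 (parental), 2 (R100), 1 (R1000) and 0 (R4000), list shares were 0.286% (R100), 0.308% (R500), 0.365% (R1000) and 0.0% (R4000), 2 genes were higher in R100 and 1 was lower in R4000, and 100.0%, 100.0%, 100.0% and 0.0% of parental bins were covered again. With peaks of at least 100 bp, 1 gene was lower in R4000. With lists of equal number, list shares were 0.2% (R100) and 0.191% (R500), and 2 genes were lower and 1 higher in R1000 than in R500.

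With peaks within 1000 bp joined, the sums were 5451, 14869, 11169, 4951 and 5501 bp, and the ratios fell to 2.05 for R500 and 0.908 for R1000, which put R1000 below the parental line and R4000, at 1.01, above it. List shares were 0.137% (R500) and 0.27% (R4000), 2 genes were higher in R1000, and 99.1%, 98.2%, 77.3% and 92.7% of parental bins were covered again.

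Within 2 kb of the TSS, sums were 1150, 4395, 4195 and 1557 bp (R4000 changed less), genes with coverage 1, 2, 2 and 1, and list shares 0.0705%, 0.0873%, 0.0926% and 0.0965%. Genes higher than in the parental line were 2 (R100), 2 (R500), 0 (R1000) and 1 (R4000), 2 were lower in R1000 than in R500, and R500 covered 95.7% of parental bins. In the 5 kb upstream alone, sums were 550, 1950, 1550, 650 and 600 bp, R4000 was at 1.09 times the parental line, genes with coverage were 1, 2, 2 and 1, and list shares 0.0337%, 0.0387%, 0.0342%, 0.0403% and 0.0559%. Genes higher were 1 (R100), 1 (R500), 0 (R1000) and 1 (R4000), 1 was lower in R1000 than in R500, and 100.0% (R100), 90.9% (R1000) and 45.5% (R4000) of parental bins were covered again.

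From the TSS to the gene end, the R4000 sum was 850 bp, list shares were 0.095% (parental), 0.121% (R100), 0.128% (R500) and 0.0792% (R4000), 2 genes were higher in R1000, and 2 were lower in R4000. With 10 kb on both sides, sums were 3950, 15150, 13500, 5550 and 2500 bp, list shares 0.242%, 0.301%, 0.298%, 0.344% and 0.233%, 3 genes were higher in R1000 and 1 lower in R4000, and 78.5% (R100) and 45.6% (R1000) of parental bins were covered again. With a minimum of 50 bp, 1 gene was lower in R4000. With a minimum of 500 bp, 1 gene was covered in R4000 and 0 were higher in R1000. Counting any difference, 3 genes were higher in R1000 and 3 lower in R4000. R100 and R500 had larger sums than the parental line under every alternative run.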
